A study of Arabidopsis thaliana with 22 samples.

Results

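The histone mark H3K4me3, trimethylated lysine 4 of histone H3, was mapped in inflorescences of wild-type (WT) Arabidopsis thaliana of the Col-0 ecotype. Mapping was by ChIP-seq, in which sheared chromatin is pulled down by an antibody and its DNA is sequenced, here beside input DNA that was not pulled down. The immunoprecipitate was 1 library from plants that carried no transgene, recovered with an antibody to H3K4me3, and its reference was 1 input library of the same genotype and tissue. These were 2 of the 22 samples of a series whose other immunoprecipitates were made with an antibody to the hemagglutinin tag. The mark is described here by the regions, called peaks, in which the authors found more fragments than the background predicted. The H3K4me3 list held 23884 peaks on chromosomes 1 to 5, out of 70258 in the 11 lists of the series, and 1 further peak on an organelle genome was left out. With 1 library there is no replicate, so shares are given with exact binomial (Clopper-Pearson) 95% intervals, which cover counting error over genes or peaks only, and no p-value is given. Inflorescences mix many cell types, and a mark present in few cells cannot be told apart from a weak mark in all of them.

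H3K4me3 is written by SET-domain methyltransferases of the Trithorax group, such as ATX1 and ATXR3 in Arabidopsis, and erased by Jumonji-type demethylases. In plants it lies on the nucleosomes just inside the 5′ ends of transcribed protein-coding genes, and PHD fingers of several chromatin proteins bind it. Pericentromeres of Arabidopsis are rich in transposable elements and silent repeats and hold few genes.

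Sequences that carried the main patterns are shown first, read from the TAIR10.1 assembly. The first set runs from 150 bases before to 149 bases after the annotated 5′ end of 5 genes, in the direction of transcription, with TGGGCC, the telomere-type word AAACCCTA, and the pyrimidine words CTCTCTC and also TTCTTCTTC in capitals wherever they or their reverse complement occur. AT5G34930 (chr5:13233207-13233506, + strand) carried the peak with the highest fold enrichment of the list. AT4G10450 (chr4:6464409-6464708, − strand) is a ribosomal protein L6 gene with a strong peak, chosen among those that held TGGGCC upstream or AAACCCTA downstream. SEP3 (chr1:8595974-8596273, − strand) and LFY (chr5:24844098-24844397, + strand) are floral regulators with and without a peak. ZMP (chr5:25497615-25497914, − strand) is the gene of the chromatin protein studied in the series.
AT5G34930: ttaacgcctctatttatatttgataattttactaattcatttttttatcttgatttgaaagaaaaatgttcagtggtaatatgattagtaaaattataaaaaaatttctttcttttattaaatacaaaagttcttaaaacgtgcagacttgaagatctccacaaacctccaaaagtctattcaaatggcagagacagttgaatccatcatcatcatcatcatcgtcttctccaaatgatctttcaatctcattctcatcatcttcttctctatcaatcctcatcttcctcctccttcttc
AT4G10450: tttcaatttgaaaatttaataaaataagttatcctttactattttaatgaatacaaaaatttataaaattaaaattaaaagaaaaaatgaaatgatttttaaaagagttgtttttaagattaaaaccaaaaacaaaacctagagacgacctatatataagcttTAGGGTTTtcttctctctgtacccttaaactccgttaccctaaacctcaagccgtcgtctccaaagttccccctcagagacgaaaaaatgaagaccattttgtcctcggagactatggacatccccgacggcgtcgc
SEP3: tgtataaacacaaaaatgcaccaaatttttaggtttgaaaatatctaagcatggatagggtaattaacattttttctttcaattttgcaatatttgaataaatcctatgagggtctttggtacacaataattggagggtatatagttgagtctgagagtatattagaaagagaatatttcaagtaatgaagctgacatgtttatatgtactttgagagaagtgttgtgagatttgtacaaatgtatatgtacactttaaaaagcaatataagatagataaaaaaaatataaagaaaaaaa
ZMP: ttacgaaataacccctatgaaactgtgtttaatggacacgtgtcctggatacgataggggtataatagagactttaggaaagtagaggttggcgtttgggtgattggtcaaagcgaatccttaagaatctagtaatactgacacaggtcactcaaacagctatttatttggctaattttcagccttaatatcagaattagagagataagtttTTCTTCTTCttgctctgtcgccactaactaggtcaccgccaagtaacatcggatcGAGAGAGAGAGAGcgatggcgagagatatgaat
LFY: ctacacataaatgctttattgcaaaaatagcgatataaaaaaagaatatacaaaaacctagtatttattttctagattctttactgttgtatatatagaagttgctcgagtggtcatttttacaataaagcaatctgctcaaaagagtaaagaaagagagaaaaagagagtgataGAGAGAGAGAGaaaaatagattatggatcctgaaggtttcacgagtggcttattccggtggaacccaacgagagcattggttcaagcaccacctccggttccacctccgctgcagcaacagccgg
The second set shows the 120 bases at the summits of the 3 strongest peaks that lay over 2000 bases from a protein-coding 5′ end, on the + strand, with the longest run of only purines or only pyrimidines in capitals. They lay at chr4:5360934-5361053, chr4:862617-862736 and chr2:3110809-3110928, and the runs were 74, 11 and 95 bases long.
Peak of 79.3-fold, chromosome 4: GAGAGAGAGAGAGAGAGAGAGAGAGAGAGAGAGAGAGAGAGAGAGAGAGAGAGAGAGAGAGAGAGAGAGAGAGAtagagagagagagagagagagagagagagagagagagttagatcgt
Peak of 69.7-fold, chromosome 4: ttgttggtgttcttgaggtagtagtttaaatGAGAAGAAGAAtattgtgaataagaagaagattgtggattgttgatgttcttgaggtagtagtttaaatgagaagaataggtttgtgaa
Peak of 69.3-fold, chromosome 2: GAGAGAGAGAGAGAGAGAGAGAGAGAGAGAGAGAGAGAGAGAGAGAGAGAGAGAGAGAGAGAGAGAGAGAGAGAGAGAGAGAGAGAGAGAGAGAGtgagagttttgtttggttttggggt
The third set shows a pair of neighbouring peaks in the densest stretch of the list, at chr1:15108185-15108304 and chr1:15108842-15108961 on the + strand, with 100 bases that both shared in capitals. The shared run was 248 bases long in all, and its copies lay 657 bases apart.
Copy under the first peak: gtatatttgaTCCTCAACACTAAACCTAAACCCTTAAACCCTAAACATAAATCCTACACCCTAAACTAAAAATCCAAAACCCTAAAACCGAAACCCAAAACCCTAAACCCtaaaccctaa
Copy under the next peak: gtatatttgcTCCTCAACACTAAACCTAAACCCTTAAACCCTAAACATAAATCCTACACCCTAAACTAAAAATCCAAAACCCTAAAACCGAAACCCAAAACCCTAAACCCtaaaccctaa

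H3K4me3 lay in short, closely spaced regions that covered 6.74% of the 5 chromosomes, 8.03 Mb in all. The median peak was 262 bases wide, with quartiles of 168 and 441 bases and a range of 103 to 2387 bases. Fold enrichment, the ratio of fragments at the summit to the background that the caller used, each plus 1, had a median of 5.40, with quartiles of 3.80 and 8.80 and a maximum of 236. The background shared by 85.1% of peaks was 5.37 fragments per base, and a median summit held 35 fragments, so that weakly marked regions could fall under the threshold at this depth. The median gap to the next peak was 2686 bases, with quartiles of 533 and 5870 bases. The shortest gap was 104 bases, near the narrowest width of 103 bases, and whether the caller set these floors was not tested. Gaps fell into a short and a long class. Gaps of 500 bases or less made up 24.3% of the 23879 gaps (23.8 to 24.9), and gaps over 10000 bases made up 11.03%. Joining peaks across gaps of 200 bases or less left 20948 regions with a median width of 315 bases, of which 2461 held 2 peaks and 227 held 3 or more.

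**Figure D1:**
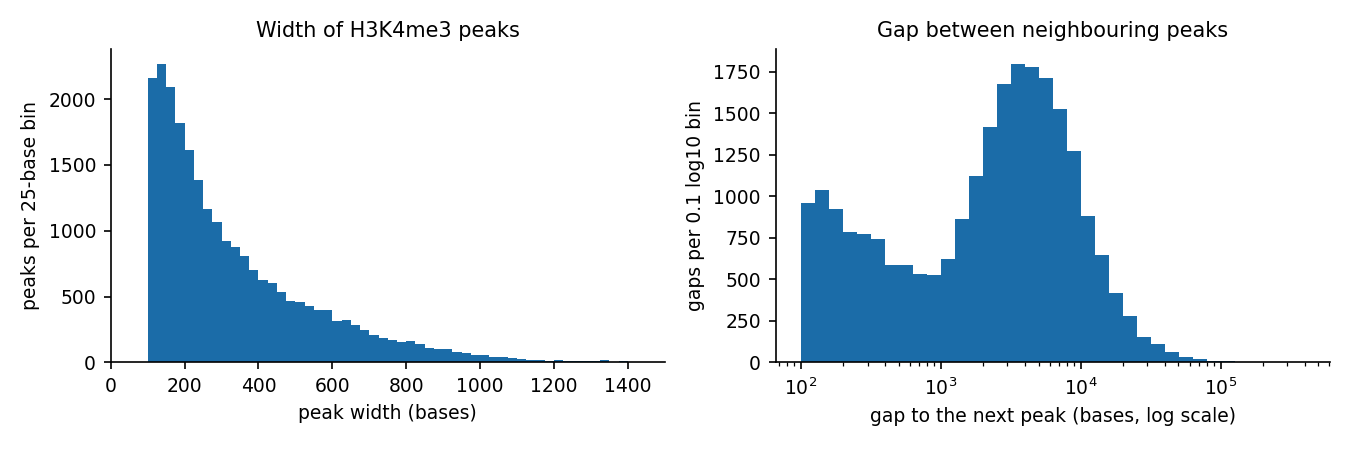
Left, number of H3K4me3 peaks per 25-base bin of peak width (bases, drawn to 1500); right, number of gaps between neighbouring peaks per bin of gap length (bases, log scale). Widths are most frequent in the lowest bins, with a median of 262 bases, and gaps form 2 groups, with 24.3% of them at 500 bases or less.

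The mark was placed just downstream of 5′ ends. Of 23884 peaks, 16337 came within 500 bases of a protein-coding 5′ end (68.4%, 67.8 to 69.0), and at these the summit lay downstream of the nearest 5′ end in 91.3% (90.9 to 91.7) with a median of 313 bases and quartiles of 153 and 474 bases. Across 27444 protein-coding genes the share under a peak was 11.8% at the 5′ end itself, 30.1% at 200 bases, 34.4% at 400 bases, where it was highest, 15.9% at 800 bases and 8.19% at 1000 bases. Upstream, the share was lowest at 150 bases before the 5′ end, with 3.65%, and was 6.72% at 600 bases before it. It was 3.14% at 1500 bases downstream, the lowest value between 2000 bases upstream and 4000 bases downstream. The 3′ end was the other place with few peaks, 2.11% of genes, against 9.82% at 800 bases past it.

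**Figure D2:**
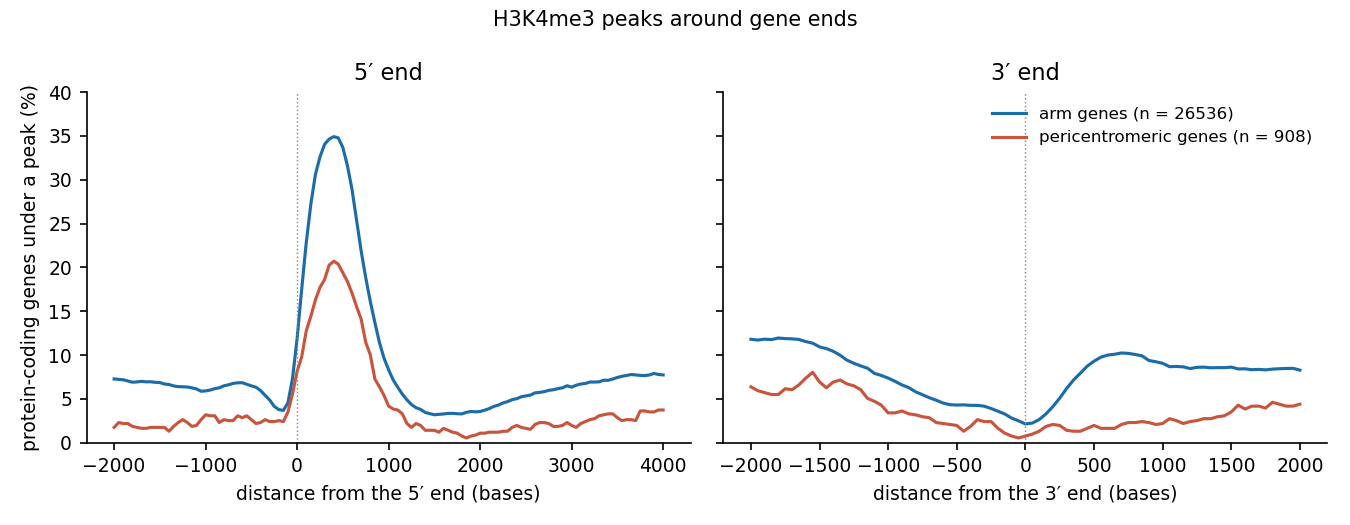
Share of protein-coding genes (%) whose base at each distance (bases) from the 5′ end (left) or the 3′ end (right) lay under an H3K4me3 peak, for 26536 genes in chromosome arms (blue) and 908 genes in pericentromeric windows (red). Both curves are highest 400 bases downstream of the 5′ end, at 34.9% in arms and 20.7% in pericentromeric windows, and low at the 3′ end.

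The place of the mark within a gene went with the length of the first exon. Among genes with 2 or more exons, the median summit of marked genes lay 265 bases from the 5′ end where the first exon had 101 to 200 bases (2142 genes), 322 bases at 201 to 300 (2629 genes), 385 bases at 301 to 400 (2291 genes) and 389 bases at 401 to 500 (1641 genes). The place of highest coverage moved further, from 300 bases downstream for the first of these classes to 350, 450 and 525 bases for the others. Relative to the end of the first exon, the median summit was 111 bases past it in the shortest of these classes, 41 bases past it at 301 to 400 bases and at -59 bases, before it, at 401 to 500 bases. For these summits only peaks that came within 500 bases of the 5′ end were counted, while coverage took in all peaks. This limit leaves out peaks further in, and its part in these medians was not tested. Where the first exon had 501 to 1000 bases, coverage had 2 maxima, 36.0% at 225 bases and 38.6% at 625 bases, with 32.5% between them at 450 bases. Beyond 1000 bases of first exon the maximum was back at 300 bases. Single-exon genes with a peak had their median summit at 228.5 bases (2292 genes). Of the 12911 marked genes with introns, 38.5% had the summit in the first exon (37.6 to 39.3) and 35.9% in the first intron (35.1 to 36.7), against 5.35% in the second exon. Over all peaks, 36.7% of summits lay in introns of protein-coding genes and 23.1% in untranslated exon sequence, while introns make up 17.2% of the chromosomes and untranslated exon sequence 9.20%. Coding sequence held 28.7% of summits and 27.8% of the bases, and the space between annotated genes 8.64% of summits and 35.9% of the bases.

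**Figure D3:**
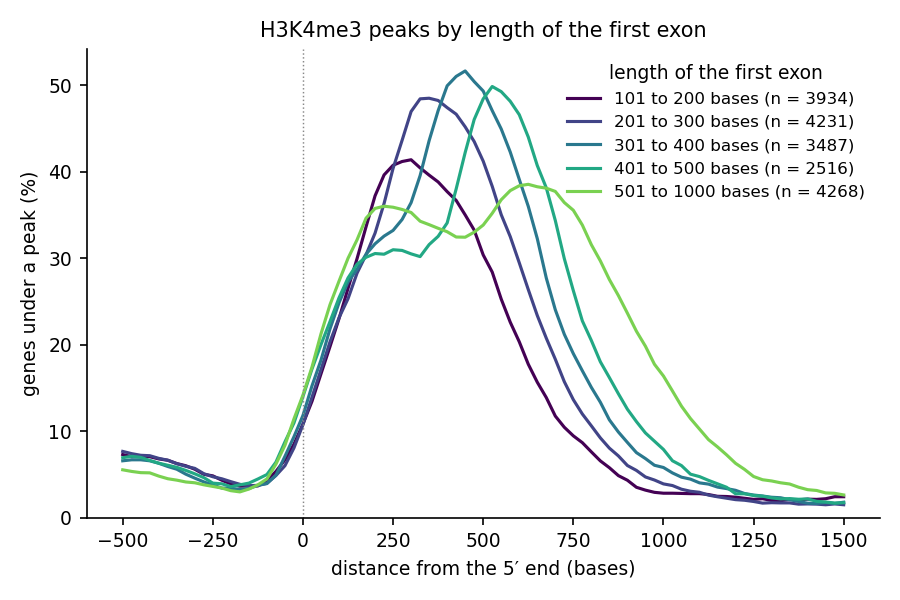
Share of genes with introns (%) under an H3K4me3 peak at each distance (bases) from the 5′ end, in 5 classes of length of the first exon. The maximum shifts from 300 bases for first exons of 101 to 200 bases to 525 bases for those of 401 to 500 bases, and the longest class has maxima at 225 and 625 bases.

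A peak within 500 bases of the 5′ end, here called a marked gene, was found for 15203 of 27444 protein-coding genes (55.4%, 54.8 to 56.0). Marked genes were longer, with a median of 2424 bases and 5 exons, against 1610 bases and 3 exons in unmarked genes. The marked share was 19.7% of genes of up to 500 bases (17.5 to 22.1), 41.4% at 1001 to 1500 bases, 65.7% at 2001 to 3000 bases and 78.7% above 5000 bases (76.6 to 80.7). By exon number it was 40.9% with 1 exon (39.6 to 42.2), 51.9% with 3 or 4, 67.6% with 7 to 9 and 79.7% with 15 or more (77.5 to 81.7). Within classes of gene length the differences by exon number were smaller up to 3000 bases. Among genes of 2001 to 3000 bases the share was 71.5% with 10 or more exons (67.8 to 75.1), 66.8% with 5 to 9, 63.5% with 2 to 4 and 63.8% with 1 (60.2 to 67.4), and at 1001 to 2000 bases it was 54.5% with 5 to 9 exons, 47.1% with 2 to 4 and 47.9% with 1. Above 3000 bases it was 77.2% with 10 or more exons (75.8 to 78.5), 67.5% with 5 to 9, 67.2% with 2 to 4 and 58.6% with 1 (49.6 to 67.2). Peaks of long genes were also wider, with a median width of 410 bases at 3001 to 5000 bases of gene length and 236 bases at 501 to 1000 bases. Of all protein-coding genes, 11069 carried 1 peak anywhere on the gene, 4285 carried 2, 733 carried 3 and 113 carried 4 or more, and 11244 carried none.

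Other gene types differed from each other. Small nucleolar RNA (snoRNA) genes, whose products guide chemical modification of ribosomal RNA, were marked in 233 of 287 cases (81.2%, 76.2 to 85.5), and of the 239 that lay over 500 bases from any protein-coding 5′ end, 187 were marked (78.2%). Transfer RNA genes, which RNA polymerase III transcribes, were marked in 188 of 625 cases (30.1%, 26.5 to 33.8), but 170 of these 188 lay within 500 bases of a protein-coding 5′ end, and away from such ends 18 of 376 were marked (4.79%). Long noncoding RNA genes were marked in 852 of 3480 cases (24.5%), 19.2% away from protein-coding 5′ ends, and microRNA genes in 81 of 326 (24.8%), 21.5% away from them. The share of arbitrary positions with a peak within 500 bases was not computed, so whether these shares exceed it was not tested. Pseudogenes were marked in 343 of 3917 cases (8.76%, 7.89 to 9.69). None of 4 annotated ribosomal RNA genes had a peak, which by the exact interval allows a share of up to 60.2%.

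The neighbourhood of a gene went with its mark. For pairs of divergent genes only the first 500 bases downstream of each 5′ end were counted, so that a peak of the partner was not taken for a gene's own. By this count 14409 of 27444 genes were marked (52.5%). Where the 5′ ends of a divergent pair were 1 to 500 bases apart, both genes were marked in 712 of 1519 pairs (46.9%) and 65.4% of the genes were marked, whereas at 2001 to 5000 bases both were marked in 29.8% of 1527 pairs and 53.0% of the genes were. Tandem and convergent pairs at 2001 to 5000 bases had 50.9% and 43.2% of their genes marked. Between its 5′ ends a convergent pair holds both genes and a divergent pair neither. Gene length, with which the marked share rose, was not matched between arrangements, and its part in these values was not tested. Windows of close divergent pairs can still share a wide peak, whose part in these values was not tested.

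Base composition and short words around the 5′ end differed between marked and unmarked protein-coding genes. Words were searched in the 250 bases before the 5′ end or the first 300 bases after it, and a match is a match of letters only. TGGGCC, on either strand upstream, was present in 18.5% of marked genes (17.9 to 19.1), 7.61% of unmarked genes (7.14 to 8.09) and 13.7% of all genes. AAACCCTA, on either strand downstream, was present in 15.3% of marked genes (14.8 to 15.9), 6.38% of unmarked genes and 11.3% of all. Both words are known from ribosomal protein genes, and of the 328 genes with ribosomal protein names 46.6% held TGGGCC and 47.9% held AAACCCTA in these windows. The pyrimidine words CTCTCTC and TTCTTCTTC, on the coding strand downstream, were present in 28.1% and 17.3% of marked genes, 11.8% and 5.87% of unmarked genes, and 20.8% and 12.2% of all. GAGAGAG, the reverse complement of CTCTCTC, was present on the coding strand downstream in 10.8% of marked genes, 5.96% of unmarked genes and 8.65% of all. TATAAA upstream on the coding strand had the opposite order, 30.6% of marked genes (29.9 to 31.3), 35.8% of unmarked genes (35.0 to 36.7) and 32.9% of all. The palindrome CACGTG differed less, with 7.38% of marked genes, 5.38% of unmarked genes and 6.49% of all. The differences were also seen among genes of 1001 to 2000 bases, where TGGGCC was in 20.9% of marked genes and 8.03% of unmarked genes and CTCTCTC in 25.6% of marked genes and 12.03% of unmarked genes. From 200 to 299 bases downstream, C and T made up 55.6% of the coding strand in marked genes and 51.8% in unmarked genes, while from 200 to 101 bases upstream they made up 49.2% in marked genes and 49.8% in unmarked genes. AAACCCTA also occurs within the telomere repeat of Arabidopsis. Among the sequences printed above, AT4G10450 held AAACCCTA in reverse complement after its 5′ end, and the unmarked LFY held a run of GA. AT4G10450 was chosen for holding TGGGCC upstream or AAACCCTA downstream, so its word is no observation. The gene with a ribosomal protein name and the highest fold, AT5G19025 (152-fold), held neither in these windows. AT5G34930 and SEP3, both marked, held none of the words set in capitals. In the 150 bases from the 5′ end, C and T made up 66% in AT5G34930 and 57.3% in AT4G10450. They made up 48.7% in ZMP and 36% in SEP3, and 38.7% in the unmarked LFY.

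Members of gene lists were read against the 55.4% of all protein-coding genes. Genes of the machinery that writes and erases H3K4 methylation were marked in 17 of 18 cases (94.4%, 72.7 to 99.9). These genes have 1 to 26 exons, and of all protein-coding genes with 15 or more exons 79.7% were marked. Exon number and gene length were not matched between the lists and all genes, and their part in the list shares was not tested. The strongest peaks counted were at the methyltransferase genes ATX2 (18.4-fold) and ATXR3 (18.2-fold) and at FLD (16.8-fold), a homologue of LSD1-type demethylases that represses FLC. The demethylase genes JMJ16, JMJ17, JMJ14 and JMJ18 had peaks of 11.5-, 11.9-, 4.08- and 3.93-fold. The peak counted for JMJ15 was 3.14-fold with its summit upstream, at -478 bases. The exception was ATX1, whose peak of 25.9-fold had its summit 669 bases downstream and whose nearest edge was 565 bases from the 5′ end.

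Genes of the RNA polymerase IV (Pol IV) pathway and of DNA methylation, which have 2 to 23 exons, were marked in 23 of 26 cases (88.5%, 69.8 to 97.6). Most of their products act in silencing transposable elements. NRPD1 (AT1G63020, chr1:23361595-23362484), the gene of the largest Pol IV subunit, had a peak of 6.91-fold and 890 bases with its summit 409 bases downstream, in an intron. ZMP (AT5G63700, chr5:25497136-25497740) had a peak of 28.9-fold and 605 bases with its summit 190 bases downstream, the highest fold in this list. RDR2, the RNA polymerase that makes Pol IV transcripts double-stranded, followed with 27.6-fold, then AGO4 with 13.98-fold and AGO9 with 12.4-fold, both genes of small RNA binding proteins. The DNA demethylase gene ROS1 had a peak of 11.5-fold, and the maintenance methyltransferase gene MET1 of 5.18-fold. The peaks counted for RDM1 and CMT2 lay upstream, with summits at -496 and -290 bases. With only the first 500 bases downstream counted, 22 of the 26 genes were marked, against 52.5% of all genes. By the main rule CLSY1, CLSY2 and SUVH2 were unmarked. CLSY1 and CLSY2, which encode chromatin remodellers that act with Pol IV, had no peak anywhere on the gene, whereas CLSY3 and CLSY4 had peaks of 4.08- and 5.18-fold. SUVH2, which encodes a protein that binds methylated DNA, had a peak of 5.76-fold 2575 bases into the gene.

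Floral regulators split. Of 23 genes of floral meristem and organ identity, 10 were marked (43.5%, 23.2 to 65.5). All 4 SEPALLATA genes, MADS-box cofactors of floral organ identity, were marked, SEP3 (AT1G24260) with 36.6-fold over 785 bases, SEP2 and SEP4 with 11.3-fold and SEP1 with 8.48-fold. The organ identity genes AP1, AP2, PI and AG were marked with 5.66-, 6.75-, 6.75- and 5.76-fold, and AG had a further peak of 5.34-fold in its intron, 1323 bases from the 5′ end. SUP, which limits stamen number, had a peak of 13.7-fold and FUL of 9.58-fold. Of the unmarked members, 6 had no peak anywhere on the gene. These were LFY, which specifies floral identity, its target CAL, the F-box gene UFO, the stem cell regulators WUS and CLV3, and the carpel gene CRC, and their nearest peaks were 2378, 3854, 3516, 8533, 3819 and 3428 bases from the 5′ end. The other unmarked members AP3, CLV1, STM, SHP1, SHP2, STK and ANT had peaks further inside, the strongest of each with its summit between 636 and 1817 bases from the 5′ end and a fold between 2.51 and 13.0. With a limit of 1000 bases 15 of the 23 were marked, against 62.6% of all genes. Of 7 genes of anther and tapetum development, DYT1 (2.98-fold) and MS1 (6.07-fold) were marked, and SPL, TDF1, AMS, MYB80 and MS2 had no peak on the gene.

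Flowering time genes were marked in 8 of 14 cases (57.1%, 28.9 to 82.3). SVP, a repressor of flowering, had the strongest peak with 15.2-fold over 913 bases. GI, SOC1 and FD, which promote flowering, had 9.90-, 7.38- and 7.19-fold. The repressor FLC (AT5G10140) had a weak peak of 3.14-fold and 150 bases, and its relatives MAF1, MAF2 and MAF3 had 5.81-, 6.28- and 7.23-fold, while MAF4 and MAF5 had none. The florigen genes FT and TSF, the inhibitor TFL1 and CO were unmarked, CO with a peak of 8.48-fold 2864 bases downstream. Housekeeping references were marked in 11 of 13 cases (84.6%, 54.6 to 98.1), from 5.81-fold at ACT2 to 23.9-fold at GAPC1, and the unmarked TUB2 and TUA3 had the summits of their strongest peaks on the gene 701 and 978 bases downstream. Photosynthesis genes were marked in 7 of 12 cases, from 4.24-fold at CAB3 to 25.6-fold at PSAF. The small subunit genes of Rubisco RBCS1B, RBCS2B and RBCS3B had no peak within 15 kb of the 5′ end, and RBCS1A had 2 peaks on the gene, the stronger of 8.01-fold with its summit 1268 bases downstream and the nearer edge of the closest 577 bases from the 5′ end. RBCS and CAB genes are near-identical copies, and reads that match several copies can be lost or split between them, the part of which was not tested. Seed maturation genes were marked in 6 of 13 cases, among them the regulators LEC2 (13.7-fold) and FUS3 (9.74-fold), and the cruciferin genes CRU1, CRU2 and CRU3 were unmarked. Of the peaks counted for seed storage genes, SESA1, SESA2 and SESA3 had summits between -34 and -12 bases from the 5′ end and OLEO1 at -512 bases. Root genes were marked in 2 of 12 cases (16.7%, 2.09 to 48.4), RHD6 with 2.98-fold and IRT1 with 5.31-fold.

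Families found by their product names spread more widely. Genes named for ribosomal proteins were marked in 277 of 328 cases (84.5%, 80.1 to 88.2) and histones in 34 of 48 (70.8%, 55.9 to 83.0). Both kinds of gene are short, with median lengths of 1561 and 966.5 bases. The ribosomal names take in proteins of plastids and proteins only related in sequence, whose number was not counted. NB-ARC and TIR disease resistance genes, with a median length of 4227 bases, were marked in 56 of 159 cases (35.2%, 27.8 to 43.2). Cytochrome P450 genes were marked in 72 of 248 (29.0%), MADS-box genes in 33 of 120 (27.5%) and F-box genes in 161 of 653 (24.7%). Their median lengths were 2053, 1211.5 and 1367 bases, against 2078 bases for all protein-coding genes. Genes of defensin-like and self-incompatibility proteins, small secreted proteins of which many act in pollen and seeds, were marked in 10 of 287 cases (3.48%, 1.68 to 6.31). These genes are short, with a median of 556 bases, and of all protein-coding genes of 501 to 1000 bases 25.7% were marked. At marked genes the median fold was 7.70 for ribosomal proteins, 4.63 for NB-ARC and TIR genes and 4.24 for cytochrome P450 genes, against 6.75 for all marked genes.

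**Figure D4:**
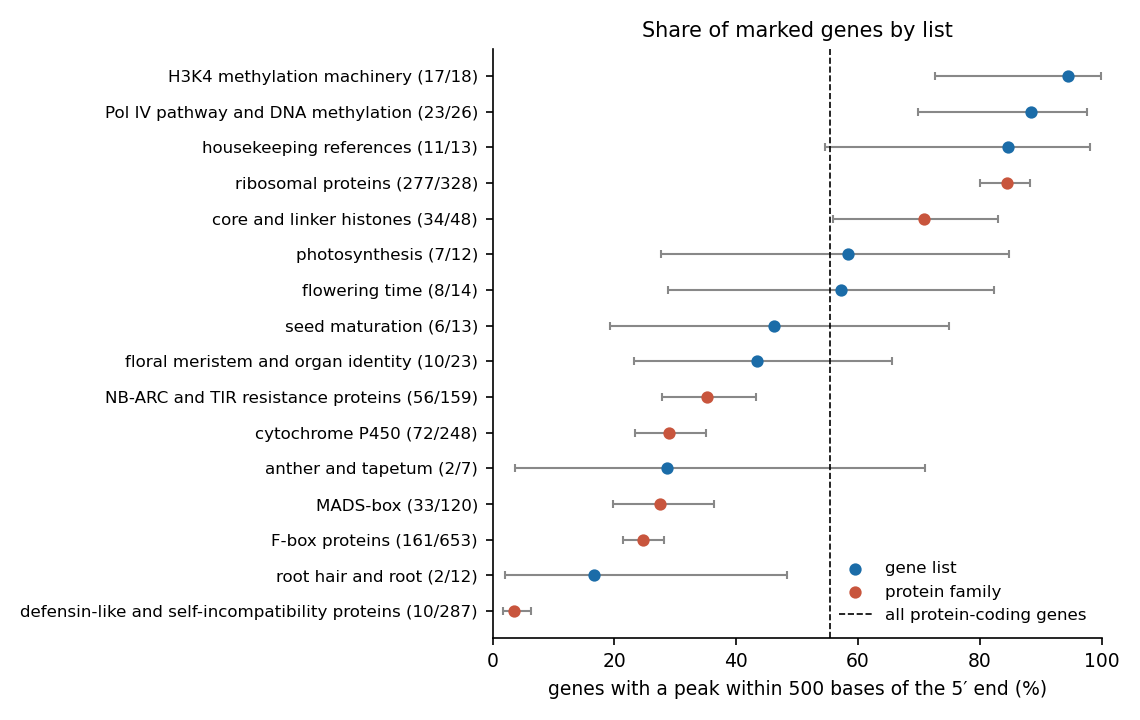
Share of genes (%) with an H3K4me3 peak within 500 bases of the 5′ end in 9 gene lists (blue) and 7 protein families (red), with exact 95% intervals as bars and the count beside each name; the dashed line is the 55.4% of all protein-coding genes. The machinery of H3K4 methylation is highest at 94.4% and defensin-like and self-incompatibility proteins are lowest at 3.48%.

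The strongest peaks at 5′ ends were few and far above the median of 5.40-fold. AT5G34930 (chr5:13233357-13235763), an arogenate dehydrogenase gene of tyrosine synthesis that lies in the pericentromere, had 236-fold over 536 bases with its summit 144 bases downstream. ZCW7 (AT1G59600, chr1:21889639-21892056) followed with 208-fold and AT3G28720 (chr3:10782095-10784634), of unknown function, with 204-fold. STOP1 (AT1G34370, chr1:12550339-12552629), the gene of a zinc finger factor of acid and aluminium tolerance, had 164-fold, and AT2G15440 (chr2:6743528-6744835), a DUF579 polysaccharide biosynthesis gene, had 163-fold over 1223 bases. The widest peaks had folds far under those of the strongest, though all but the last were above the upper quartile of 8.80. TIC (TIME FOR COFFEE, AT3G22380, chr3:7912905-7919707), a component of the circadian clock, had 2387 bases at 36.7-fold. AT1G23720, an extensin-like gene, had 2090 bases at 13.5-fold inside its coding sequence, and this peak overlapped a peak of 6 of the other 10 lists of the series, none of them a list without a transgene. AT4G01985 had 1694 bases at 16.3-fold and overlapped 4 other lists. NPY5 (AT4G37590), of a family that acts in auxin-dependent organ formation, had 1687 bases at 12.4-fold, and AT4G18520, a pentatricopeptide repeat gene, 1680 bases at 8.50-fold. Fold and width went together, with median widths of 582 bases in the 10% of peaks with the highest fold and 137 bases in the 10% with the lowest. The share of peaks within 500 bases of a protein-coding 5′ end was 85.9% in the highest 10% and 42.1% in the lowest 10%.

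Chromosome arms held more peaks per Mb than pericentromeric windows, 1 gene-poor stretch per chromosome (17.2 Mb in all, where the density of protein-coding genes stayed under 50% of the chromosome's median). On chromosome 2 this rule gave chr2:3800001-6100000. The windows of 500 kb from 2.5 and 3.5 Mb had 35 and 19 protein-coding genes, on either side of 1 with 102. That from 2.5 Mb counted as arm, and that from 3.5 Mb counted as arm only before the start of the stretch. Among the 500 kb windows described below, the whole of the latter counted as arm. Arms had 220 peaks per Mb and pericentromeric windows 82.5, a ratio of 2.67, while the ratio of protein-coding genes per Mb was 4.93. By chromosome, arms and pericentromeric windows had 219 and 134 peaks per Mb on chromosome 1, 201 and 75.2 on chromosome 2, 235 and 53.7 on chromosome 3, 216 and 96.2 on chromosome 4, and 227 and 62.4 on chromosome 5. Arms had 0.847 peaks per protein-coding gene and pericentromeric windows 1.56. Of arm peaks 71.2% lay within 500 bases of a protein-coding 5′ end, against 23.3% of pericentromeric peaks. Between annotated genes lay 5.41% of arm summits and 59.8% of pericentromeric summits, where this space made up 33.1% of arm bases and 52.1% of pericentromeric bases. The pericentromeric values include the repeat windows described below. The median fold was 5.50 in arms and 3.77 in pericentromeric windows. Peaks near 5′ ends differed less, with median folds of 6.13 in arms and 6.28 in pericentromeric windows and median widths of 319 bases in arms and 340 bases in pericentromeric windows.

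Genes in the arms were marked more often. In arms 14908 of 26536 protein-coding genes were marked (56.2%, 55.6 to 56.8), against 295 of 908 in pericentromeric windows (32.5%, 29.4 to 35.6). The order held on each of the 5 chromosomes, with 53.5% to 57.6% in arms and 23.5% to 37.9% in pericentromeric windows. It also held in every class of gene length, from 21.2% in arms and 5.98% in pericentromeric windows up to 500 bases to 79.1% in arms and 63.6% in pericentromeric windows above 5000 bases. Pericentromeric genes were marked at the same place, since coverage was highest at 400 bases downstream in both. The strongest pericentromeric peaks at 5′ ends after AT5G34930 were at ACC1 (AT1G36160, chr1:13533168-13544015), the gene of the acetyl-CoA carboxylase of fatty acid synthesis, with 133-fold over 933 bases, and beside AT2G13422, of unknown function, with 93.2-fold, a summit at -336 bases and an overlap with 4 other lists of the series. The marked list members UBQ10, a ubiquitin gene, and DCL3, the gene of the nuclease that cuts Pol IV products, also lay in pericentromeric windows and had peaks of 9.74- and 7.07-fold.

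**Figure D5:**
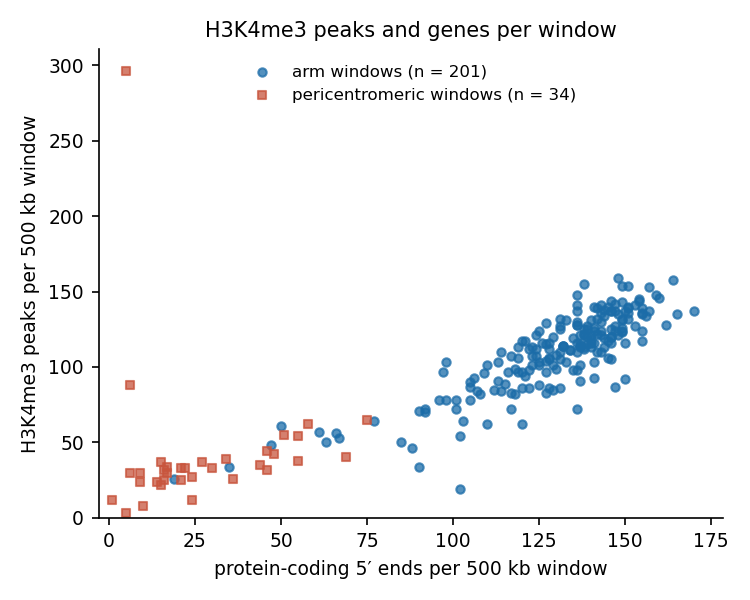
H3K4me3 peaks against protein-coding 5′ ends in each full 500 kb window, for 201 arm windows (blue circles) and 34 pericentromeric windows (red squares). Arm windows held 19 to 159 peaks with a median of 114, and pericentromeric windows held 3 to 296 with a median of 33; the window with 296 peaks lies on chromosome 1 and holds 5 genes.

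The highest local density of peaks was not on genes. A 500 kb window from 15 Mb on chromosome 1 held 296 peaks and 5 protein-coding genes, more peaks than any other such window. At finer scale, 7 windows of 50 kb held 25 or more peaks, 6 at chr1:15100001-15400000 with 256 peaks and 1 at chr4:3200001-3250000 with 51 peaks. Inside them the highest count was 70 and the lowest 25, and the next windows of the list had 23. These 307 peaks, which made up 21.6% of pericentromeric peaks and 53.0% of those on chromosome 1, had their summits at a median step of 666 bases on chromosome 1 and 652.5 bases on chromosome 4. Their sequence was repetitive. Of the 15-base words of these windows, 42.5% to 94.7% recurred within the same window, against 0.354% to 2.19% in the 5 next densest windows of the list. Those 5 held 12 to 21 protein-coding genes each, and other pericentromeric sequence was not compared. Peaks in the dense windows were rich in the telomere-type word CCCTAAA, which occurs 5 times in each of the copies printed above. At least 2 such words, on either strand, lay in 251 of 256 of these peaks on chromosome 1 (98.0%, 95.5 to 99.4) and in all 51 on chromosome 4. The share was 7.82% of 1112 other pericentromeric peaks, 0.788% of arm peaks and 0.292% of windows of 262 bases taken every 1000 bases. Folds of the peaks in the dense windows were low, with a median of 2.64 on chromosome 1 and 3.89 on chromosome 4, against 5.50 in the rest of the list. Their background was high, with a median of 22.0 and 14.3 fragments per base, against 5.37. Collapsed or multiply mapped repeats raise fragment counts in immunoprecipitate and input, and their part in these peaks was not tested. In the same windows the ZMP-HA lists had 41 and 39 peaks, the NRPD1-HA lists 1 to 5, and the lists without a transgene 1, 39, 20 and 22. Without these windows, arms had 220 peaks per Mb and pericentromeric windows 66.0, a ratio of 3.34, and on chromosome 1 the ratio was 3.19 in place of 1.63. Of the remaining pericentromeric peaks, 29.7% lay within 500 bases of a protein-coding 5′ end. Their median fold was 4.24, and 49.0% of their summits lay between annotated genes.

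At the other extreme, 17 stretches of over 100 kb had no peak, 2 in arms and 15 in pericentromeric windows, 2.60 Mb in all. The longest, chr1:14593818-14923580, was 329.8 kb long and held 3 protein-coding genes and 26 pseudogenes. The next, chr3:13648586-13931429, was 283 kb long and held 24 pseudogenes and no protein-coding gene. The stretch chr2:3301822-3526709 was different, since its 225 kb held 67 protein-coding genes. Chromosome 2 is known to carry a large copy of the mitochondrial genome there, and 11 of the 67 genes had names of respiratory chain or mitochondrial proteins. With its neighbour chr2:3185786-3301599, of 29 genes, it made up both stretches counted as arm. They lie mostly in the gene-rich window between gene-poor ones, outside the pericentromeric stretch that the density rule gave on chromosome 2. The 500 kb window from 3 Mb on chromosome 2 held 102 protein-coding genes, 4 of them marked, and had the fewest peaks of any arm window, 19. Reads from such copies also match the organelle genome, and the part of this in the missing peaks was not tested.

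Peaks away from protein-coding 5′ ends numbered 7547 (31.6%, 31.0 to 32.2), and 931 of these had the 5′ end of another gene type within 500 bases. They were weaker and narrower, with a median of 4.24-fold and 190 bases, against 6.13-fold and 319 bases near 5′ ends. Their summits lay in coding sequence in 33.5%, in introns in 30.2%, between genes in 18.9% and in untranslated exon sequence in 9.41%, and 1027 summits (13.6%) were over 5000 bases from a protein-coding 5′ end. Of the 3 strongest of those over 2000 bases away, 2 lay on long GA runs. The peak at chr4:5360849-5361156 had 79.3-fold over 308 bases on the long GA run printed above, and that at chr2:3110707-3111051 had 69.3-fold over 345 bases on a GA run of 95 bases, whereas the peak at chr4:862465-862845, with 69.7-fold, held no run over 11 bases at its summit. They overlapped peaks of 5, 4 and 4 other lists, none of them a list without a transgene. Windows of 101 bases in which purines or pyrimidines made up 80% or more of a strand were counted at every summit. They occurred at 747 of 23884 summits (3.13%, 2.91 to 3.36) and at 0.0992% of windows taken every 1000 bases along the chromosomes. The share was 11.4% in the 10% of peaks with the highest fold and 0.712% in the 10% with the lowest, and was 13.7% of 364 peaks of 15-fold or more away from 5′ ends and 10.7% of 2201 near them. Peaks of this kind away from 5′ ends overlapped a peak of any other list of the series in 109 of 272 cases (40.1%, 34.2 to 46.2), against 7.79% of 475 near 5′ ends and 6.06% of all H3K4me3 peaks. The overlap of the remaining peaks away from 5′ ends was not computed. In the other lists 6.64% to 34.0% of peaks lay near a protein-coding 5′ end, and the part of position in the 40.1% was not tested.

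The H3K4me3 list was unlike the other lists of the series in the same measures. Its peaks were narrower, with a median width of 262 bases against 490 to 886 bases, and its narrowest peak had 103 bases against 340 to 360 bases. Of its peaks 5.94% lay in pericentromeric windows, against 26.2% to 80.9% in the other lists, and 68.4% lay near a protein-coding 5′ end, against 6.64% to 34.0%. Of 23884 H3K4me3 peaks, 171 (0.716%, 0.613 to 0.831) overlapped a peak of any of the 4 lists without a transgene, and 7.98% to 12.05% of the peaks of those lists overlapped an H3K4me3 peak. The lists differ in antibody, in depth and in the narrowest width they hold, and these differences cannot be told apart from that of the mark. Whether the caller set the narrowest width of each list was not tested.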

How the data were processed

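Chromatin of WT inflorescences was profiled with 1 H3K4me3 immunoprecipitate and 1 input library. The submitters' processing notes name Trim Galore 0.4.3 for trimming, Bowtie2 2.2.9 for alignment, MACS2 2.2.6 for peak calling and the TAIR10 build, and per the study's methods the authors called each library's list in paired-end mode against input. No q-value threshold is given in the sources used here, and the lowest −log10 q-value in the deposited list was 1.35. The protocol text shared by the labels names an anti-HA antibody, while the antibody field of this sample and the study's methods name anti-H3K4me3, which was followed. Every line of the deposited list holds a region with its summit, a score, a linear ratio (fold enrichment), and the p-value and q-value as −log10. Such a list holds regions past a threshold and no read counts, so a missing peak is not an absent mark.

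Coordinates are 1-based TAIR10 positions. Genes and sequences came from the RefSeq annotation of TAIR10.1, whose nuclear chromosomes match in name and length. A 5′ end is the outermost annotated start of a gene, so a wrong annotation moves distances. All 138 list genes matched by locus, and 131 of them also by symbol. Pericentromeric windows were runs of 100 kb windows with protein-coding density, averaged over 1 Mb, under 50% of the chromosome's median. Pileup and background were solved from fold and p-value for each peak and rebuilt the p-value within 1% for 100% of peaks. Functions were tested on simulated data. Named genes were the 5 with the highest fold at the 5′ end, the 5 at the widest peaks, the 3 with the highest fold in pericentromeric windows, the members of the lists, NRPD1 and ZMP. Members, lists and searched words were chosen with earlier results of these data known, and the dense windows and the peaks on simple repeats after their values were seen. Sequence shares and profiles used Python 3.11.15, pandas 2.3.3 and scipy 1.17.1.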

Additional observations from a re-analysis of the deposited data

How the results depend on the processing

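No paired analysis was possible because the list comes from 1 library with no replicate. Of 30 alternative values of the main results, 25 stayed within 1.5 times a count or within the 95% interval of a median or ratio. Joining peaks across gaps of 200 bases or less moved the median width to 315 bases, the median gap to 3275 bases and the ratio of peaks per Mb between arms and pericentromeric windows to 2.48. Leaving out the windows of 25 or more peaks, an alternative chosen after seeing the data, moved this ratio to 3.34. Taking the midpoint in place of the summit moved the median distance from the 5′ end to 342 bases. The count of marked protein-coding genes ran from 11658 with a limit of 250 bases to 17178 with 1000 bases, and was 15192 at a q-value of 0.01 or less. Of 27 list counts, 26 stayed within 1.5 times, and root genes had 4 of 12 marked with a limit of 1000 bases, an alternative chosen after seeing the data. Depth limits which weak regions pass the threshold.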
